A study of Mus musculus with 6 samples.

Results

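The genes described here are 30 transcripts of mouse hippocampal astrocytes, 15 that mark the identity of the cell and 15 that are known to be induced when it becomes reactive. They were picked by symbol from a table of 55414 genes, and each symbol matched exactly 1 row. RNA was sequenced from the mouse hippocampus, in 3 samples of a CerM group and 3 of a vehicle group, which the labels call biological replicates 1 to 3. CerM is not spelled out in the labels, and its dose, its duration and the strain, sex and age of the animals are not given in the sources used here. Corticosterone-induced depression stands in the title of the series, beside ceramides from an altered gut flora, but the labels give no corticosterone treatment for these 6 samples. Whether the samples are separate animals is not stated, so a p-value here reflects sample-to-sample spread, which may not be spread between animals. Values are TPM, a transcript's share of its library after correction for its length, and the number of reads behind a value is unknown.

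Astrocytes clear glutamate from synapses, turn it into glutamine, take up potassium, share small molecules through gap junctions and move water and bicarbonate at their end-feet on blood vessels. Injury, inflammation and some stress states induce a reactive programme in which intermediate filaments, protease inhibitors, complement components and cytokine-response genes are raised. Cytokines of the interleukin-6 family act on it through the receptor subunit gp130 and the transcription factor STAT3. The filament protein GFAP is the usual histological sign of that programme, and in the hippocampus it is abundant in resting astrocytes too.

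The 6 libraries differed in RNA of marker genes of other tissues. Whether those tissues were in the samples was not tested. Summed TPM of 10 choroid plexus markers was 10186 in CerM replicate 1, 12010 in CerM replicate 3 and 17095 in vehicle replicate 3, and 350 to 440 in CerM replicate 2 and vehicle replicates 1 and 2. Fat tissue markers summed to 802 TPM in CerM replicate 3 and to between 0.95 and 2.53 elsewhere, with Cfd and Retn listed at 0 in 5 and 3 of the 6 libraries. Neocortex markers summed to 383 TPM in vehicle replicate 1 and to between 150 and 159 elsewhere. Lamp5 and Mef2c, at 149.9 and 123 TPM, made most of that sum, and Tbr1, Rorb, Cux2 and Rspo1 were also clearly highest there. Fezf2 was highest by little, at 37.4 TPM against 25.5 to 35.6. Scnn1a was not raised, at 5.26 TPM against 3.67 to 6.31. Vehicle replicate 1 also had the lowest oligodendrocyte markers, 4078 TPM against 6260 to 7427, and the lowest ependymal markers, 40.0 TPM against 107 to 180. Values without one or both of CerM replicate 3 and vehicle replicate 1 are given for the medians of the identity and reactive sets and for the genes they move most.

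All 15 identity genes were present in every library, the lowest single value being 6.29 TPM for Sox9. Their order by mean TPM over the 6 libraries was Glul, Aldoc, Slc1a2, Slc1a3, S100b, Mlc1, Gja1, Ntsr2, Acsbg1, Fgfr3, Gjb6, Aqp4, Slc4a4, Aldh1l1 and Sox9. Glul, glutamine synthetase, and Aldoc, the brain form of aldolase, led with means of 933 and 878 TPM, and their ranges overlapped. The glutamate transporter genes Slc1a2 and Slc1a3 came next with 290.4 and 200.3 TPM, and their ranges did not overlap. Sox9, a transcription factor of the astrocyte lineage, closed the order at 9.10 TPM.

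**Figure D1:**
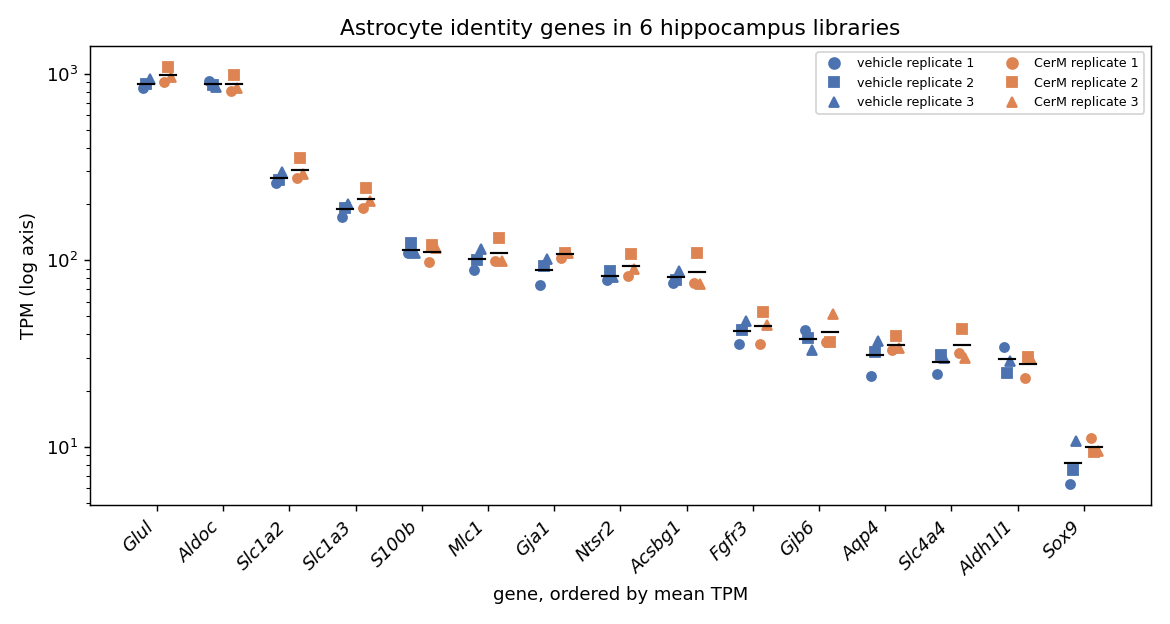
TPM (log axis) of the 15 identity genes in each library, ordered by the mean over 6 libraries. Points are libraries, with vehicle in blue and CerM in orange and the marker shape giving the replicate number, and black bars are group means. CerM replicate 2 has the highest value for 11 of the 15 genes, and only for Gja1 do all CerM points lie above all vehicle points.

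Genes of glutamate handling stood slightly higher in CerM on average, within the spread of the libraries. In these bulk samples, a different number of astrocytes and a different amount of RNA per astrocyte cannot be told apart. Slc1a2, which encodes the main glutamate transporter of the forebrain (GLT-1), had 275, 353 and 291 TPM in CerM replicates 1 to 3 and 258, 270.3 and 295 in vehicle replicates 1 to 3. CerM replicate 2 was high and the other 5 libraries lay close together, so the groups overlapped. Slc1a3, the second astrocyte glutamate transporter (GLAST), had 189.8, 243 and 208 TPM in CerM and 170.0, 190.1 and 201 in vehicle. Glul, which turns the glutamate taken up into glutamine, had 903, 1088 and 963 TPM in CerM and 837, 877 and 932 in vehicle. For all 3 genes CerM replicate 2 was the highest library and vehicle replicate 1 the lowest. Their log2 fold changes, CerM over vehicle on the scale of log2(TPM + 1), were 0.15 for Slc1a2 (95% confidence interval −0.12 to 0.42), 0.19 for Slc1a3 (−0.08 to 0.46) and 0.16 for Glul (−0.07 to 0.38). Without CerM replicate 2 they shrank to 0.05, 0.09 and 0.08.

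Among genes of gap junctions and end-feet, 1 separated the groups. Gja1, connexin 43, had 103, 109.9 and 109 TPM in CerM replicates 1 to 3 and 73.2, 92.6 and 101 in vehicle replicates 1 to 3. All CerM libraries lay above all vehicle libraries by a narrow margin, and vehicle replicate 1 was the lowest of the 6. Gja1 had a log2 fold change of 0.28 ± 0.13 (SE), with an unadjusted p of 0.0618 and an adjusted p of 0.989 in limma's moderated test with Benjamini-Hochberg adjustment. Without vehicle replicate 1 it shrank to 0.15, and without that library and CerM replicate 3 together to 0.14. Gjb6, connexin 30, the other gap junction protein of astrocytes, had 36.5, 36.3 and 51.4 TPM in CerM and 42.0, 38.5 and 33.1 in vehicle, so that CerM replicate 3 alone was high. Without that library its log2 fold change turned from 0.11 to −0.05. Aqp4, the water channel of end-feet, had 32.8, 39.1 and 34.0 TPM in CerM and 24.1, 32.3 and 36.9 in vehicle. Mlc1, an end-foot membrane protein, had 98.5, 131.8 and 99.5 against 88.1, 100.5 and 115, and Slc4a4, a sodium bicarbonate cotransporter, had 31.8, 43.0 and 29.98 against 24.6, 30.9 and 30.1. In each of these 3 genes vehicle replicate 1 was lowest and CerM replicate 2 highest.

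The metabolic, receptor and regulatory identity genes overlapped between the groups. Aldoc had 811, 987 and 842 TPM in CerM replicates 1 to 3 and 912, 868 and 846 in vehicle, with a log2 fold change of 0.00 (−0.22 to 0.23), and its direction changed with the scaling (−0.03 under median-ratio scaling). Aldh1l1, a folate enzyme used as a pan-astrocyte marker, had 23.5, 30.2 and 29.5 TPM in CerM and 34.2, 25.0 and 28.99 in vehicle. Its highest value was in vehicle replicate 1, the library that was lowest for 9 of the 15 identity genes. S100b, a calcium-binding protein that oligodendrocytes make as well, had 97.6, 120.5 and 116 against 109, 123 and 109 TPM. The fatty acyl-CoA synthetase gene Acsbg1 ran from 75.0 to 109 TPM over all 6 libraries, the growth factor receptor gene Fgfr3 from 35.5 to 52.6 and the neurotensin receptor gene Ntsr2 from 78.0 to 108. Sox9 had 11.1, 9.39 and 9.53 TPM in CerM and 6.29, 7.53 and 10.7 in vehicle, and its log2 fold change of 0.29 (−0.16 to 0.74) was the highest of the 15. Without vehicle replicate 1 it shrank to 0.13, below Slc4a4 at 0.17 and Gja1 at 0.15.

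No identity gene passed the test. Limma called 0 of the 15 at an adjusted p below 0.05, where it called 0 of all 14916 tested genes (percentage called, 0). At an unadjusted p below 0.05 there were 0 identity genes, where 402 of all tested genes (2.7%) lay below it, 1.07% with CerM higher and 1.62% with CerM lower. The groups did not overlap, with CerM higher, in 1 of the 15 (Gja1), where 3.26% of all tested genes did so. Log2 fold changes ran from −0.08 for Aldh1l1 to 0.29 for Sox9. They lay above 0 for 13 of the 15, with a median of 0.15, where 58.8% of all tested genes lay above 0 with a median of 0.03. The 95% confidence interval lay within 2-fold of TPM + 1 for all 15 and within 1.5-fold for 13, where the shares over all tested genes were 90.2% and 63.7%. Without CerM replicate 2 the median shrank from 0.15 to 0.06. It was 0.11 without vehicle replicate 1, 0.18 without CerM replicate 3 and 0.13 without both.

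Reactive genes spanned a far wider range of levels. Gfap, the filament gene that also marks resting hippocampal astrocytes, had a mean of 264 TPM. Serpina3n, a serine protease inhibitor, and Vim, the intermediate filament vimentin, followed with 55.3 and 44.4 TPM. C4b, a complement component that oligodendrocytes express too, had 11.3 TPM, the ferroxidase gene Cp 6.89 and the small heat shock protein gene Hspb1 6.66. Means of Gbp2, C3, Cd44, Osmr, Steap4 and Aspg lay between 1.17 and 2.26 TPM. Timp1, Cxcl10 and Lcn2 stayed below the minimum mean of 1 TPM at 0.65, 0.55 and 0.14, and were not in the fit. Of the 12 reactive genes that entered it, C3, Steap4 and Aspg did so with a vehicle mean under 1 TPM, so they passed through the CerM libraries.

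**Figure D2:**
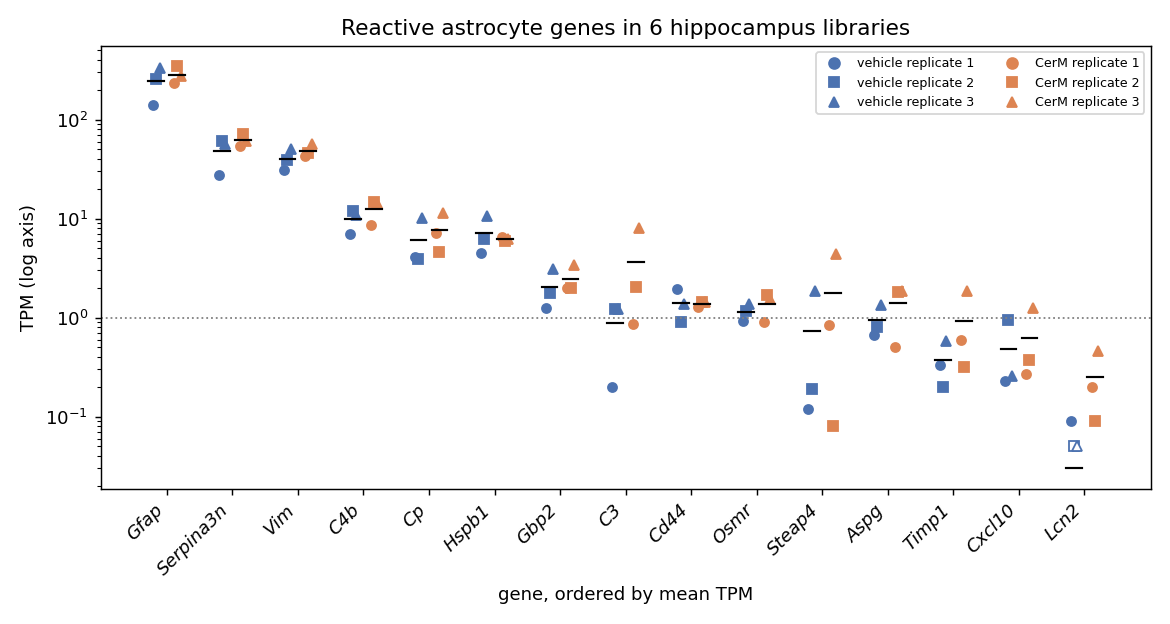
TPM (log axis) of the 15 reactive genes in each library, ordered by the mean over 6 libraries. Points are libraries and black bars group means, as in the plot of identity genes. The dotted line is the minimum mean of 1 TPM, and the 2 open markers, drawn at 0.05, are vehicle libraries in which Lcn2 is listed at 0. Vehicle replicate 1 is the lowest library for 8 genes and CerM replicate 3 the highest for 9.

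The RefSeq table of windows around transcription starts (mouse build GRCm38.p6, 250 bases before the start and 50 after it) holds 27 of the 30 genes. C4b, Aqp4 and Sox9 were not matched. The letters TTCNNNGAA are a palindrome that STAT factors including STAT3 are known to bind and that reads the same on both strands. These letters were searched because STAT3 is a known route to this programme. They occur in 8.3% of all 32851 windows of that length and in 6 of the 31 windows of the matched genes. Counted by gene, they occur for 2 of 14 matched reactive genes (Gfap and Steap4) and for 4 of 13 matched identity genes (Acsbg1, Aldoc, Ntsr2 and Slc1a3). A match describes the letters and does not show a binding site. Both reactive genes and the identity gene with a pair of matches are printed to set the sequence of each group beside its values, 5′ to 3′ on the gene's strand and with the match in capitals.
Gfap, chr11:102897184-102897212, minus strand, where the match begins 2 bases before the start: atgggggtgcTTCCAGGAAgtcaggggca
Steap4, chr5:7960222-7960471, plus strand, the 250 bases before the start: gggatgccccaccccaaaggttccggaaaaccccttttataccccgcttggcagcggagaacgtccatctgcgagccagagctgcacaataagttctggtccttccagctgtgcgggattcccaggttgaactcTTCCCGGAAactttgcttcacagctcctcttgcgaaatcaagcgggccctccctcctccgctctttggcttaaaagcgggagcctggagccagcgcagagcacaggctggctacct
Aldoc, chr11:78323948-78324197, plus strand, the 250 bases before the start: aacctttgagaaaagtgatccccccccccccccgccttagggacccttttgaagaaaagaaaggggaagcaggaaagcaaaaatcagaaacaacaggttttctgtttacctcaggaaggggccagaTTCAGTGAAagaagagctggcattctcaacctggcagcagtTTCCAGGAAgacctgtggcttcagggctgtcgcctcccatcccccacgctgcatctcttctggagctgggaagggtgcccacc

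The abundant reactive genes were lowest in vehicle replicate 1 and otherwise overlapped between treatments. Gfap had 233, 348 and 274 TPM in CerM replicates 1 to 3 and 139.8, 258 and 333 in vehicle replicates 1 to 3. CerM replicate 1 was the second lowest library, and vehicle replicate 3 was second only to CerM replicate 2. Serpina3n had 54.2, 71.8 and 60.7 TPM in CerM and 27.4, 61.0 and 56.7 in vehicle, so that 5 libraries lay between 54.2 and 71.8 and vehicle replicate 1 below all of them. C4b had 8.69, 14.6 and 14.3 TPM in CerM and 7.03, 11.99 and 11.0 in vehicle. Vim had 42.8, 46.1 and 56.3 TPM in CerM and 30.8, 39.6 and 50.9 in vehicle, and in each group replicate 3 was the highest. Log2 fold changes were 0.29 for Gfap (95% confidence interval −0.42 to 1.01), 0.43 for Serpina3n (−0.25 to 1.11), 0.30 for C4b (−0.29 to 0.88) and 0.27 for Vim (−0.17 to 0.72). Without vehicle replicate 1, that of Gfap turned to −0.06, and those of Serpina3n, C4b and Vim shrank to 0.07, 0.08 and 0.10. With CerM replicate 3 left out as well, those of Gfap, Vim and C4b were −0.04, −0.02 and −0.02, and that of Serpina3n was 0.08.

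Cp, Steap4 and Gbp2 were highest in the libraries numbered 3. Cp, which encodes ceruloplasmin, had 7.17, 4.65 and 11.3 TPM in CerM replicates 1 to 3 and 4.11, 3.95 and 10.2 in vehicle replicates 1 to 3. The 3 libraries with high choroid plexus markers were the 3 highest for Cp. Steap4, a metalloreductase of cytokine-treated cells, had 0.84, 0.08 and 4.43 TPM in CerM and 0.12, 0.19 and 1.88 in vehicle, with the same 3 libraries at the top. Gbp2, an interferon-induced GTPase that endothelial cells make as well, had 2.00, 2.01 and 3.38 against 1.24, 1.79 and 3.13 TPM. Endothelial and mural markers summed to 310.4 TPM in CerM replicate 3 and 279.6 in vehicle replicate 3, and to between 234 and 272 elsewhere. Hspb1 was highest in vehicle replicate 3 alone, at 10.7 TPM against 4.46 to 6.47, and it was the only reactive gene of the 12 tested with a log2 fold change below 0 (−0.10), which turned to 0.20 without that library. The part of choroid plexus and vessel transcripts in these values was not tested.

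CerM replicate 3, the library with 802 TPM of summed fat markers, had the highest values of C3, Timp1, Lcn2 and Cxcl10. C3, the central complement component, which fat tissue is known to express, had 0.86, 2.03 and 7.97 TPM in CerM replicates 1 to 3 and 0.20, 1.23 and 1.21 in vehicle. Its log2 fold change of 1.03 ± 0.57 (SE) was the highest of the 27 tested members. It shrank to 0.39 without CerM replicate 3, to 0.74 without vehicle replicate 1 and to 0.10 without both. Timp1, a tissue inhibitor of metalloproteinases, had 0.60, 0.32 and 1.87 TPM in CerM and 0.33, 0.20 and 0.58 in vehicle (two-sided exact permutation p = 0.3). Lcn2, lipocalin 2, a secreted protein strongly induced in reactive astrocytes, had 0.20, 0.09 and 0.46 TPM in CerM and 0.09 in vehicle replicate 1, and is listed at 0 in the other 2 vehicle libraries (exact permutation p = 0.2). Cxcl10, an interferon-induced chemokine, had 0.27, 0.37 and 1.24 TPM in CerM and 0.23, 0.95 and 0.26 in vehicle (exact permutation p = 0.5). The smallest p that 3 against 3 samples can give is 0.1, so these 3 tests cannot reach 0.05. The part of fat tissue transcripts in these values was not tested.

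Osmr, Aspg and Cd44 were low and overlapped. Osmr, the receptor for oncostatin M, had 0.91, 1.68 and 1.54 TPM in CerM replicates 1 to 3 and 0.93, 1.16 and 1.37 in vehicle. Aspg, an asparaginase known from astrocyte injury signatures, had 0.51, 1.82 and 1.86 against 0.67, 0.81 and 1.35 TPM, with the lowest of all 6 libraries in CerM. Cd44, a hyaluronan receptor, had 1.27, 1.44 and 1.45 against 1.96, 0.91 and 1.38 TPM. Its log2 fold change of 0.00 (−0.52 to 0.53) turned to −0.10 under quantile normalization.

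Limma called 0 of the 12 tested reactive genes at an adjusted p below 0.05, and 0 lay below an unadjusted p of 0.05, where the shares over all tested genes were 0% and 2.7%. In none of the 15 did the groups stay apart, where 3.26% of all tested genes did with CerM higher and 4.04% with CerM lower. Log2 fold changes lay above 0 for 11 of the 12, where 58.8% of all tested genes did, with a median of 0.28. C3, Steap4 and Aspg, whose vehicle means lay under 1 TPM, are among the 11, and the minimum favoured that direction for them. At a minimum of 5 TPM, which 6 reactive genes passed, the median was 0.29. Group differences lay above 0 for 14 of all 15, with a median of 0.27. Intervals were wider than for identity genes: 7 of the 12 lay within 2-fold and 1 within 1.5-fold, against 90.2% and 63.7% of all tested genes. The median standard error was 0.29 against 0.15 for identity genes and 0.16 over all tested genes. The median of 0.28 shrank to 0.09 without vehicle replicate 1, to 0.10 without CerM replicate 3 and to −0.02 without both. The last 2 medians are over 11 genes, because Steap4 fell below the minimum without CerM replicate 3. Without vehicle replicate 3 the median grew to 0.45.

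**Figure D3:**
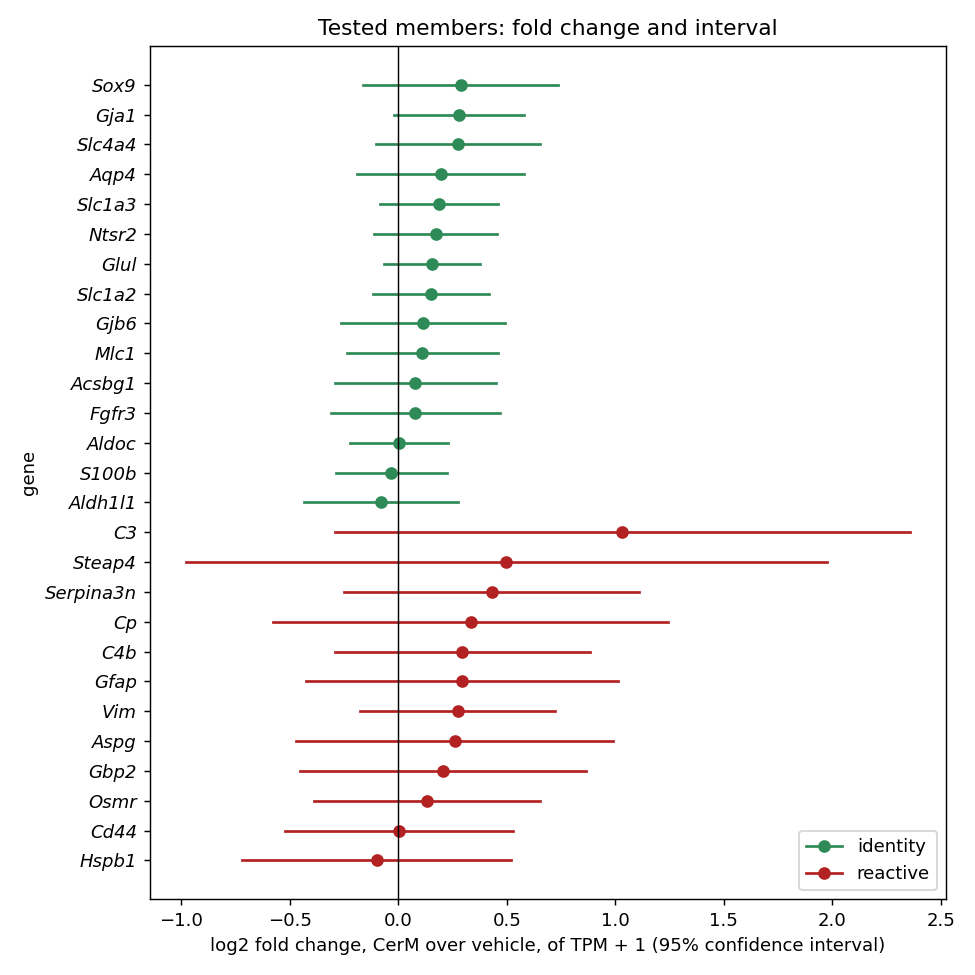
Log2 fold change of TPM + 1, CerM over vehicle, for the 27 tested genes, with limma's 95% confidence interval as a line. Identity genes are green and reactive genes red, each ordered by fold change. Every interval crosses 0, and the reactive intervals are wider, up to C3 at 1.03 (−0.29 to 2.36).

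Set against each other, the reactive genes lay further above 0 than the identity genes by 0.13 in median log2 fold change. This is a description of both sets, which were not tested against each other. The direction of that gap was not stable: over 20 alternatives it ran from −0.14 to 0.25 and was below 0 in 6. Per library, the mean deviation of log2(TPM + 1) from each gene's 6-library mean was taken over the 15 genes of each set. For identity genes it was −0.07, 0.22 and 0.05 in CerM replicates 1 to 3 and −0.17, −0.05 and 0.03 in vehicle replicates 1 to 3. For reactive genes it was −0.12, 0.03 and 0.53 in CerM and −0.47, −0.15 and 0.17 in vehicle. Group means were 0.07 ± 0.15 (SD, n = 3) in CerM and −0.07 ± 0.10 in vehicle for identity genes, and 0.15 ± 0.34 and −0.15 ± 0.32 for reactive genes. In both sets the groups overlapped.

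Both sets placed different libraries at the top. CerM replicate 2 led the identity genes and was highest for 11 of the 15. It also had the highest mean deviation for oligodendrocyte, oligodendrocyte precursor, microglia, neuron and neural stem cell markers (0.24, 0.22, 0.14, 0.13 and 0.10). For endothelial and mural, meningeal fibroblast, choroid plexus, ependymal, fat, blood and neocortex markers another library was highest. CerM replicate 3 led the reactive genes and was highest for 9 of the 15, while vehicle replicate 1 was lowest for 9 identity and 8 reactive genes. Reactive minus identity deviations were −0.05, −0.19 and 0.49 in CerM replicates 1 to 3 and −0.30, −0.10 and 0.14 in vehicle replicates 1 to 3. The highest 2 were the libraries numbered 3 of both treatments, which also had the highest sums of endothelial and mural, meningeal fibroblast and choroid plexus markers. Meningeal fibroblast markers summed to 2834 TPM in CerM replicate 3 and 1887 in vehicle replicate 3, against 938 to 1821 elsewhere.

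**Figure D4:**
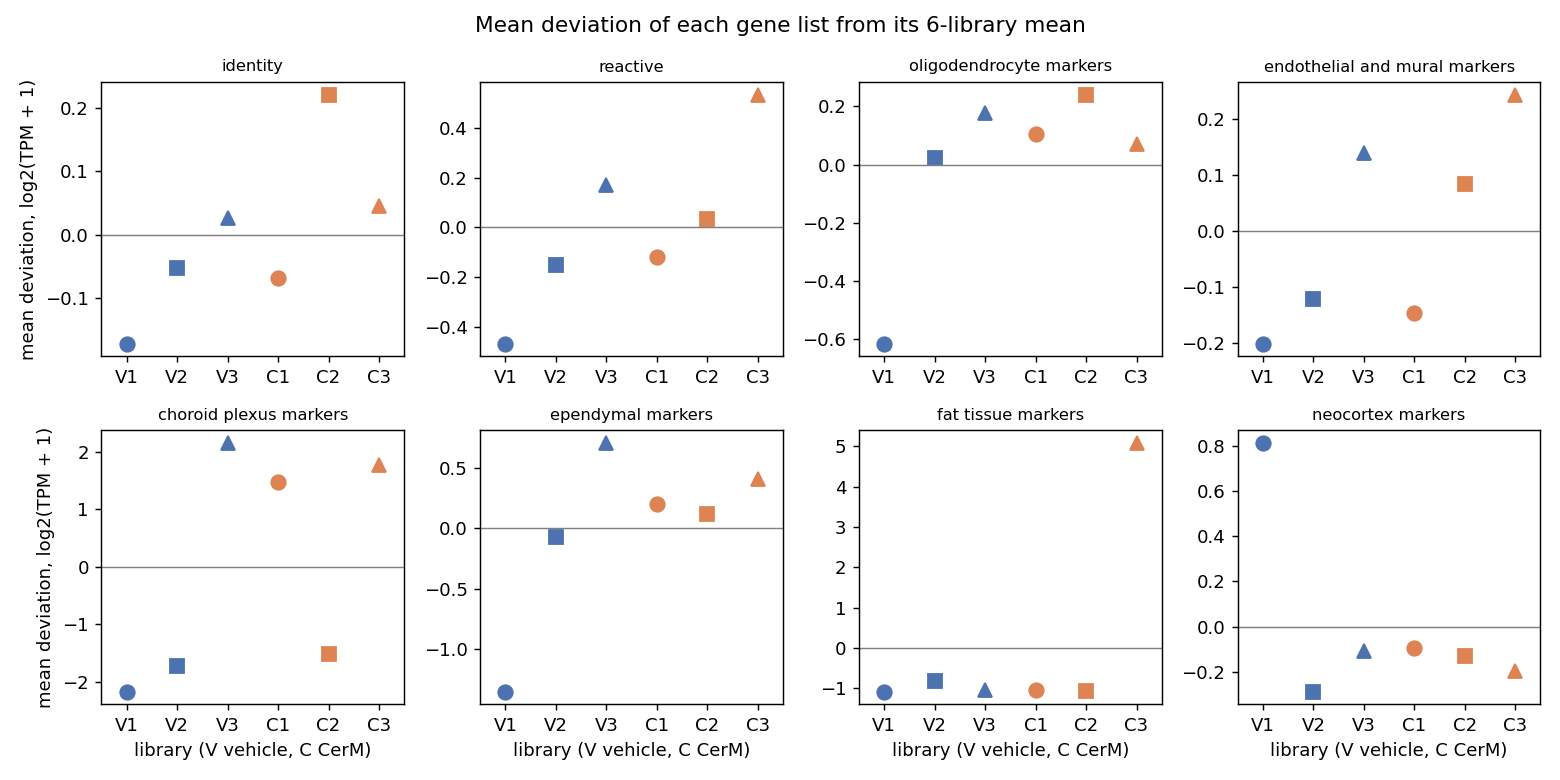
Mean deviation of log2(TPM + 1) from the 6-library mean for the identity genes, the reactive genes and 6 marker lists of other cells or tissues, in vehicle (V) and CerM (C) libraries 1 to 3. Each point is a library, and the panels have their own axes. Identity genes peak in C2, reactive genes in C3, fat tissue markers are high in C3 alone, neocortex markers in V1 alone, and choroid plexus markers in V3, C1 and C3.

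Within libraries of similar choroid plexus marker levels the difference between treatments did not keep its direction, in the members or over all tested genes. Among the 3 libraries with high choroid plexus markers (CerM replicates 1 and 3, vehicle replicate 3), the median of CerM minus vehicle was −0.03 over the 15 identity genes, with 5 above 0. Over the 12 tested reactive genes it was −0.08, with 4 above 0. Over all tested genes the median in those libraries was −0.08, with 4908 of 14916 above 0. Among the 3 libraries with low markers (CerM replicate 2, vehicle replicates 1 and 2), the median was 0.41 over identity genes, with 14 of 15 above 0, and 0.39 over reactive genes, with 11 of 12 above 0, against 0.16 over all tested genes. Of all 14916 tested genes, 10413 lay above 0 in the libraries with low markers. Each class holds a single library of one treatment, so these are values with no test. With the choroid plexus score as a covariate, the identity median was 0.15 and the reactive median 0.14, and limma called 0 genes.

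CerM replicate 2 and vehicle replicate 2 were the pair with low markers of choroid plexus, fat and neocortex alike. Between these 2 libraries, 13 of 15 identity genes were higher in CerM, by a median of 0.30 on the log2(TPM + 1) scale. The range ran from −0.08 for Gjb6 to 0.47 for Acsbg1. Of the 15 reactive genes 12 were higher in CerM, by a median of 0.21, from −0.51 for Cxcl10 to 0.64 for Aspg. The median over all tested genes in the same pair was 0.14, with 10396 of 14916 higher in CerM. A single library of each treatment gives no replicate check.

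A list of 40 other astrocyte genes was read beside the identity set. Of the 39 tested, limma called 0, and 32 lay above 0, with a median of 0.12, where 58.8% of all tested genes lay above 0. That median shrank to 0.04 without CerM replicate 2 and to 0.07 without vehicle replicate 1, and was 0.10 without CerM replicate 3. Slc6a9, the glycine transporter GlyT1, had the smallest p of the list (unadjusted p = 0.0426, limma). It had 28.2, 36.4 and 29.1 TPM in CerM replicates 1 to 3 and 22.8, 24.6 and 26.9 in vehicle, a log2 fold change of 0.32 ± 0.13 (SE), and was the only one of the 39 whose groups did not overlap. With CerM higher, 3.26% of all tested genes did not overlap, so 1 of 39 is close to the background. The cell adhesion gene Hepacam, whose product binds MLC1, had 53.9 ± 7.71 TPM in CerM and 45.9 ± 7.0 in vehicle (mean ± SD, n = 3 each), and the urea transporter gene Slc14a1 had 9.23 ± 1.86 and 7.38 ± 1.94. The cytochrome P450 gene Cyp4f15 had 18.6 ± 6.59 and 12.9 ± 3.46 TPM, F3, tissue factor, 34.5 ± 3.15 and 30.7 ± 2.18, and the glycogen-targeting subunit gene Ppp1r3c 27.2 ± 2.77 and 24.3 ± 1.49. All had an adjusted p of 0.989.

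A list of 29 further genes known from reactive astrocytes held differences in both directions. Of the 21 tested, 0 were called, 15 lay above 0, where 58.8% of all tested genes did, and 6 below. Their median was 0.16, which turned to −0.04 without CerM replicate 3 and to −0.01 without vehicle replicate 1. S100a10, a marker of the reactive state after ischaemia, had the smallest p and pointed down. It had 43.5, 42.3 and 50.1 TPM in CerM replicates 1 to 3 and 63.6, 51.8 and 53.3 in vehicle, with a log2 fold change of −0.30 ± 0.12 (SE, unadjusted p = 0.0351, adjusted p = 0.989, limma). Its groups did not overlap, as in 4.04% of all tested genes with CerM lower. Its relative S100a6 had 21.8 ± 0.50 TPM in CerM and 25.5 ± 3.66 in vehicle (mean ± SD, n = 3 each). Emp1, an epithelial membrane protein gene, had 1.56, 2.06 and 6.0 against 0.86, 0.99 and 2.64 TPM, and the complement inhibitor gene Serping1 had 6.73, 6.48 and 17.8 against 5.56, 4.02 and 10.9. Both were highest in CerM replicate 3 and next in vehicle replicate 3, the order of the reactive set. S1pr3, a receptor for sphingosine 1-phosphate, had 4.15 ± 0.78 and 3.34 ± 0.77 TPM, and the filament gene Nes 2.80 ± 0.43 and 2.31 ± 0.30.

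Of 25 genes for cytokines, receptors and transcription factors, 19 were tested, 0 were called and 18 lay above 0, where 58.8% of all tested genes did, with a median of 0.13. The mean deviation of the 25 was lowest in vehicle replicate 1 (−0.17) and highest in CerM replicate 2 (0.13). The cytokine genes Osm, Lif, Il6, Cntf, Il1a and Tnf were those below the minimum of 1 TPM. Tgfb1, transforming growth factor beta, had the smallest p (unadjusted 0.0692, limma), with 5.03, 3.65 and 5.63 TPM in CerM replicates 1 to 3 and 3.21, 3.54 and 3.43 in vehicle. The groups did not overlap for it or for Il6ra, the interleukin-6 receptor, where 3.26% of all tested genes stood apart with CerM higher. Il6ra had 1.77 ± 0.31 and 1.36 ± 0.07 TPM (mean ± SD, n = 3 each). Nfkbia, the inhibitor that NF-kappa-B itself induces, had 32.2 ± 9.05 TPM in CerM and 24.1 ± 2.85 in vehicle. Il6st, which encodes gp130, had 17.7 ± 3.02 and 14.9 ± 2.52 TPM, Tgfbr2 5.57 ± 0.89 and 4.33 ± 1.15, and Il1r1 4.03 ± 0.36 and 3.10 ± 1.2.

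Microglial tumour necrosis factor, interleukin 1 alpha and complement C1q together are known to induce a neurotoxic astrocyte state, and their genes were chosen for mention outside the rule for named genes. Tnf is listed at 0 in all 6 libraries, and Il1a lay between 0.16 and 0.64 TPM. C1qa had 78.4 ± 10.9 TPM in CerM and 79.7 ± 4.42 in vehicle (mean ± SD, n = 3 each). Summed microglia markers were 319 to 377 TPM in CerM and 330.3 to 350.3 in vehicle, and their 10 genes had a median log2 fold change of 0.01.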

How the data were processed

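Per the labels' protocols, TRIzol was used to extract RNA of 6 hippocampus samples, DNase I to remove DNA, and an Illumina TruSeq kit for the libraries. The submitters' processing notes list HISAT2, StringTie and RSEM and the build GRCm39, without versions or roles. The authors deposited 1 table of TPM values with 2 decimals for 55414 genes. TPM totals ran from 993379 to 995403 per library, and depth is unknown. No pair of libraries was a duplicate: of the genes above 1 TPM in both, 16 to 47 had exactly equal values to 2 decimals.

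Genes with a mean of at least 1 TPM (14916) were tested with limma 3.58.1 in R 4.3.3 on log2(TPM + 1), with a variance trend, two-sided, with Benjamini-Hochberg adjustment over all tested genes and a threshold of 0.05. The fit uses all 6 libraries with treatment as the only term. The scale understates the change of low genes. Members below the minimum got an exact permutation test. The test was checked on simulated data.

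Members and lists were chosen with earlier results of these data known. All 30 members are named. From each further astrocyte, reactive or signalling list, up to 6 genes with the smallest p are named. Marker lists are given mostly as summed TPM or mean deviation. Single genes of the neural stem cell and neocortex lists, and Tnf, Il1a and C1qa, are named outside this rule. The choroid plexus covariate and the classes by choroid plexus markers were chosen after seeing the data. Other alternatives changed the pseudocount (0.1, 0.5), the TPM minimum (none, 5), the scaling, the variance model, sample weights, the replicate block and the libraries kept. Python 3.11.15 with pandas 2.3.3, scipy 1.17.1 and matplotlib 3.10.9 served for the rest.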

Additional observations from a re-analysis of the deposited data

How the results depend on the processing

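Limma called 0 genes in all settings with 6 libraries, which tried pseudocounts, TPM minimums, scalings, variance models, weights, a choroid plexus covariate and the replicate block. It called 1 to 8 genes when a single library was left out (8 without CerM replicate 3) and 1, Gm10217, without vehicle replicate 1 and CerM replicate 3 together, and 0 of these were members. The smallest adjusted p of a tested member over all settings was 0.214. With array weights 2696 genes lay at an unadjusted p below 0.05, against 402. TPM keeps no read depth, so what depth limits could not be computed, and the values below 1 TPM carry an unknown counting error. Across scalings the median of all tested genes moved by less than 0.1.

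The numbers of the replicates were not treated as a pairing. The deviations of same-numbered libraries correlated across genes with r = 0.01, 0.20 and 0.22, and the last 2 values were the highest of all pairs. CerM replicate 2 with vehicle replicate 3 gave −0.21, and CerM replicate 3 with vehicle replicate 2 gave −0.20. Vehicle replicate 1 correlated best with CerM replicate 2, at 0.07. A batch shared by number was not tested. With the replicate block limma called 0 genes, 496 lay at an unadjusted p below 0.05, and both medians were as without it, 0.15 for identity and 0.28 for reactive genes.

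Leaving out single libraries, the identity median ran from 0.060 to 0.22 and the reactive median from 0.090 to 0.45, while the median of the other reactive genes ran from −0.040 to 0.29. Within the libraries high in choroid plexus markers the identity and reactive medians were −0.034 and −0.079, and within the low ones the identity median was 0.41. Without vehicle replicate 1 and CerM replicate 3 together, the reactive median was −0.015, that of the other reactive genes −0.044, and the log2 fold changes that turned were Fgfr3 −0.047, Gfap −0.042, Vim −0.015, C4b −0.020, Osmr −5.64e-05, Cp −0.13 and Gbp2 −0.18. Array weights turned Aldh1l1 to 0.11, Aldoc to −0.036 and Acsbg1 to −0.022. Median-ratio scaling turned Aldoc to −0.032 and Cd44 to −0.018, quantile normalization turned Cd44 to −0.10, and the choroid plexus covariate turned S100b to 0.0030. Over the single libraries left out, members that turned ran from −0.19 to 0.033 (Aldh1l1), −0.048 to 0.20 (Gjb6), −0.051 to 0.23 (Fgfr3), −0.082 to 0.059 (Aldoc), −0.092 to 0.058 (S100b), −0.10 to 0.17 (Acsbg1), −0.025 to 0.21 (Mlc1), −0.061 to 0.56 (Gfap), −0.15 to 0.16 (Cd44) and −0.35 to 0.20 (Hspb1). The causes were not tested. In all, 31 of 478 alternative values of the tested members had the opposite direction. A member below the TPM minimum in a setting has no value there, as Steap4 without CerM replicate 3.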

Other observations

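Neural stem cells of the dentate gyrus share Gfap and Sox9 with astrocytes. Of 8 markers of these cells and their progeny, 7 were tested and limma called 0. Thbs4, Hopx, Dcx and Mki67 are named outside the rule for named genes. Thbs4 was the only 1 of the 7 at an unadjusted p below 0.05 in limma, where 2.7% of all tested genes were. Thbs4, thrombospondin 4, which astrocytes also make, had 6.84, 11.7 and 8.72 TPM in CerM replicates 1 to 3 and 3.73, 6.07 and 6.45 in vehicle replicates 1 to 3. Its groups did not overlap, as in 3.26% of all tested genes with CerM higher. Its log2 fold change was 0.65 ± 0.24 (SE), with an unadjusted p of 0.0297 and an adjusted p of 0.989 in limma. Hopx, a transcription cofactor of quiescent stem cells and astrocytes, had 98.9 ± 11.3 TPM in CerM and 92.1 ± 21.0 in vehicle (mean ± SD, n = 3 each), with vehicle replicate 1 lowest at 67.8. Dcx, a marker of immature neurons, had 2.48 ± 0.17 TPM in CerM and 2.33 ± 0.40 in vehicle. The proliferation gene Mki67 lay between 0.15 and 0.28 TPM, below the minimum of 1 TPM.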
